A study of Rattus norvegicus with 20 samples.

Results

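Round spermatids, the haploid germ cells that follow meiosis, were compared between rats given cyclophosphamide and rats given saline, on 10 of the 20 arrays of the series. The members were every array labelled as round spermatids, 5 from cyclophosphamide rats and 5 from saline rats, and the other 10 arrays hold pachytene spermatocytes, the meiotic cells before them. The cyclophosphamide arrays carry the RNA of rats 14, 15, 16, 25 and 26, and the saline arrays that of rats 15, 16, 17, 25 and 28. All were male Sprague-Dawley rats of an age not given in the labels. Cyclophosphamide was given by gavage at 6 mg/kg on 6 days a week for 4 weeks, and the controls received saline on the same schedule. Spermatids were isolated by sedimentation at unit gravity in the STA-PUT chamber, a separation by cell size that can carry over other cells of similar size. A number that occurs in both treatments does not mark the same animal.

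MicroRNAs (miRNAs) are RNAs of roughly 20 bases that guide Argonaute proteins to messenger RNAs and lower their output, and they find targets mainly through the seed near their 5′ end. Each precursor hairpin gives a 5p and a 3p arm, of which usually a single arm accumulates. The miR-34 and miR-449 family is abundant from meiosis onwards in the testis and is also known as a transcriptional target of p53, and a large X-linked cluster of the miR-506 family is expressed mainly in male germ cells. Cyclophosphamide is a prodrug whose metabolites alkylate and crosslink DNA, and post-meiotic germ cells are known as sensitive to it.

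Feature Extraction detected 168 of the 677 rat miRNAs on all 10 spermatid arrays, 6 more on all 5 cyclophosphamide arrays and 10 more on all 5 saline arrays. These 184 miRNAs were tested. Of the rest, 81 were detected on some arrays and 412 on none. The number of miRNAs detected per array was 213.6 ± 22.6 (SD, n = 5; 181 to 244) after cyclophosphamide and 216.6 ± 21.4 (n = 5; 193 to 250) after saline, a difference of -3 with p = 0.817 in an exact two-sided permutation test over the 252 splits of the arrays. No miRNA was detected on all arrays of one treatment and on at most 2 of the other. Arrays correlated at r of 0.951 to 0.989 within cyclophosphamide, 0.957 to 0.988 within saline and 0.949 to 0.991 between the treatments over the tested miRNAs, which are not independent replicates. The slides were unbalanced. Slide 1 held 3 cyclophosphamide arrays and 1 saline array, slide 2 held 1 of each, and slide 3 held 1 cyclophosphamide array (rat 26) and 3 saline arrays (rats 17, 25 and 28). Slide 3 was scanned on another day than slides 1 and 2, so slide 3 and that day cannot be told apart.

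The defining miRNAs of meiotic and later germ cells, miR-34b, miR-34c and miR-449a, were detected on every spermatid array. The labelled cell type has no miRNA marker of its own among the lists, so it could not be told from pachytene spermatocytes by this check. Of 16 spermatogonial marker arms on the array, 3 were detected on all 10 arrays, miR-21-5p, miR-146a-5p and miR-290. On none were 10 detected, among them miR-291a, miR-292, miR-294 and miR-295-3p. miR-290, of the same cluster as these, had a log2 signal of 6.90 to 8.19. miR-221-3p was detected on 4 cyclophosphamide and 5 saline arrays, so spermatogonial markers were in part present. Of 22 arms that mark endothelium, muscle and mesenchyme, 10 were detected on all 10 arrays, among them miR-126a-3p, miR-143-3p and miR-145-5p, while miR-206 was detected on none. Of 10 blood cell marker arms, 3 were detected on all 10 arrays, miR-142-3p, miR-150-3p and miR-223-3p, and miR-144 was detected on none. Of 8 Sertoli and Leydig cell arms, 5 were detected on all 10 arrays. In bulk RNA, fewer cells of a type and less of the miRNA per cell cannot be told apart.

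The sequences below are those of the miR-34 and miR-449 arms, which include the miRNA with the smallest p, followed by 3 other miRNAs to which the results return. They were taken from RefSeq (assembly GRCr8), which held 168 of the 184 tested miRNAs. The capitals mark the seed, bases 2 to 8 from the 5′ end.

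miR-34a-5p: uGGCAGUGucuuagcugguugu
miR-34b-5p: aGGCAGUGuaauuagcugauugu
miR-34c-5p: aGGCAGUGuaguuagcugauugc
miR-449a-5p: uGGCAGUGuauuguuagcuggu
miR-34b-3p: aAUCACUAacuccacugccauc
miR-34c-3p: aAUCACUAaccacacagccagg
miR-141-3p: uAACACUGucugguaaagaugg
miR-146a-5p: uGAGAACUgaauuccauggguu
miR-487b-3p: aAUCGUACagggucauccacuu

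The 4 5p arms of the family share the seed GGCAGUG, and the 3p arms of miR-34b and miR-34c share the seed AUCACUA. In GRCr8 the miR-34b and miR-34c hairpins lie together on the minus strand of chromosome 8, with miR-34c-5p at chr8:60306133-60306155 and miR-34c-3p at chr8:60306101-60306122, and the 5p arms of the pair start 524 bases apart.

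No miRNA passed the test for a change with cyclophosphamide in round spermatids. Limma called 0 of the 184 tested miRNAs (0%) at a Benjamini-Hochberg adjusted p under 0.05. The lowest adjusted p was 0.935, and 2 miRNAs (1.09%) had an unadjusted p under 0.05. For 0 miRNAs did the 5 values of one treatment lie wholly above those of the other. On the scaled log2 signal, the differences (cyclophosphamide minus saline) ran from -0.41 to 0.89 with a median of 0.04, and 181 of 184 lay within 0.5 of 0. The 95% interval lay within 2-fold on both sides for 172 miRNAs, and for the other 12 a 2-fold difference was not excluded by these arrays. The median SD between rats was 0.25 after cyclophosphamide and 0.26 after saline. The replicate spots of a probe on an array had a median SD of 0.12, and the spread between rats was larger than that between spots for 175 of the 184 miRNAs. The split of 108 positive (58.7%) against 76 negative differences depended on the scaling: it was 172 against 12 when the arrays were scaled to the labelling spike-ins, 68 against 116 without scaling and 46 against 138 with normexp background correction. The median over all tested miRNAs was 0.19, -0.06 and -0.13 under those settings, and values below are to be read relative to it. A list median above 0 with spike-in scaling is thus to be set beside the 0.19 over all tested miRNAs. The normexp fit was doubtful on the array of saline rat 25. Without that array normexp gave 138 positive against 46 negative differences, with a median of 0.03.

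**Figure D1:**
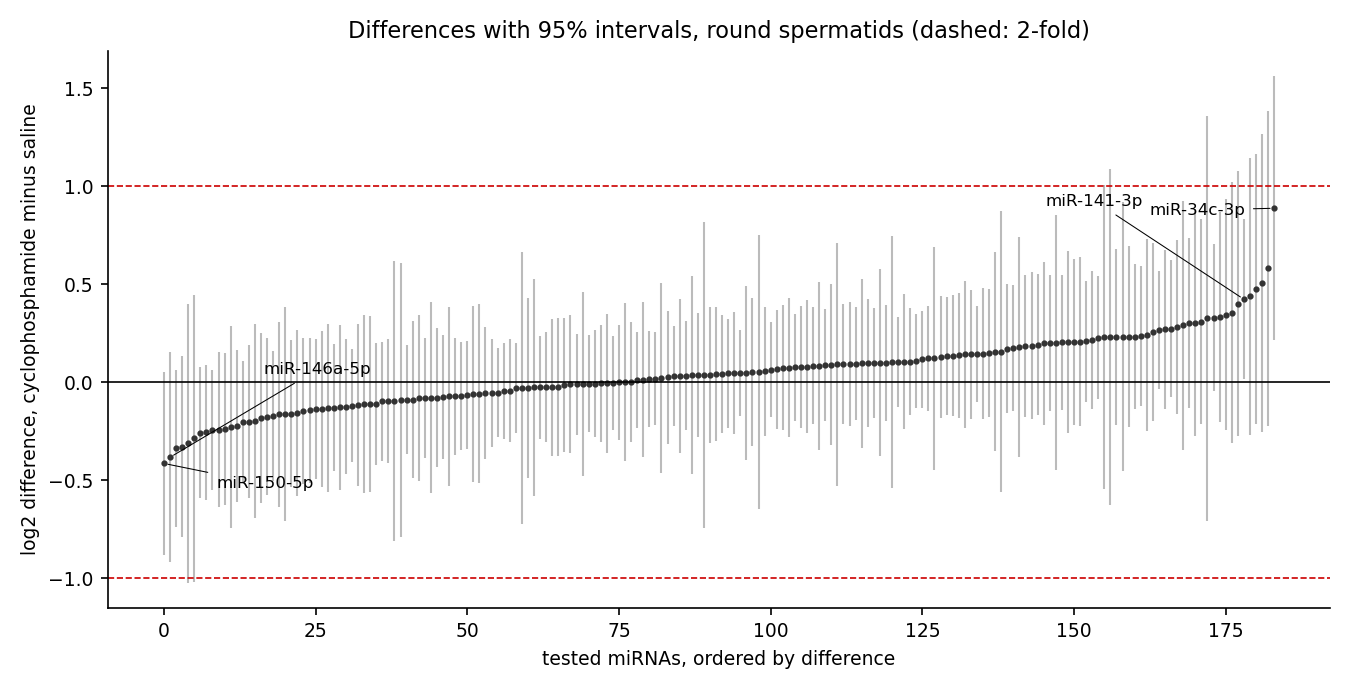
Log2 differences (cyclophosphamide minus saline, y axis) of the 184 tested miRNAs ordered from lowest to highest (x axis), as points with 95% intervals from limma, 5 arrays per treatment. Differences run from -0.41 (miR-150-5p) to 0.89 (miR-34c-3p), and the intervals of 172 miRNAs stay between the dashed lines at 2-fold.

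miR-34c-3p, the 3p arm of the p53-responsive miR-34c hairpin, had the smallest p. Its log2 signal was 7.19, 7.52, 7.04, 6.94 and 7.32 in cyclophosphamide rats 14, 15, 16, 25 and 26. In saline rats 15, 16, 17, 25 and 28 it was 5.36, 7.01, 5.59, 6.67 and 6.93. The groups overlapped: saline rat 16 lay above cyclophosphamide rat 25, and the 2 saline rats with low values, 15 and 17, lay on different slides. The difference was 0.89 ± 0.31 (SE), with a 95% interval from 0.21 to 1.56, an unadjusted p of 0.0141 and an adjusted p of 0.935 by limma. A fit with slide as a block gave 1.03 ± 0.35. The 3 slides taken singly gave 1.89, -0.08 and 0.92, where at least 1 treatment had a lone array.

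The low values in saline rats 15 and 17 were seen on every spot of the probe. The 5 spots ran from 5.20 to 5.45 on the array of saline rat 15 and from 5.40 to 5.69 on that of rat 17, while on the other 8 arrays the lowest spot was at 6.64. A second, dimmer probe for miR-34c-3p was at the floor of 3.61 on those same arrays and between 4.10 and 4.84 on the other 8, and 2 further probes were at the floor throughout, so that the mean over all probes gave 0.32. The 5p arm did not share the pattern. miR-34c-5p stood at 13.17 and 13.12 in saline rats 15 and 17, the highest of the saline values, against 12.15, 12.51 and 12.87 in rats 16, 25 and 28 and 12.98, 13.40, 12.91, 12.66 and 13.15 after cyclophosphamide. The log2 difference between the probes of the 5p and 3p arms within an array was therefore 7.80 and 7.53 in saline rats 15 and 17 and between 5.14 and 5.95 on the other 8 arrays. On the 10 pachytene spermatocyte arrays miR-34c-3p ranged from 6.28 to 7.90, above both low spermatid values. The difference in drug effect between round spermatids and pachytene spermatocytes was 0.51 ± 0.46 for this arm, with an adjusted p of 0.994 by limma.

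**Figure D2:**
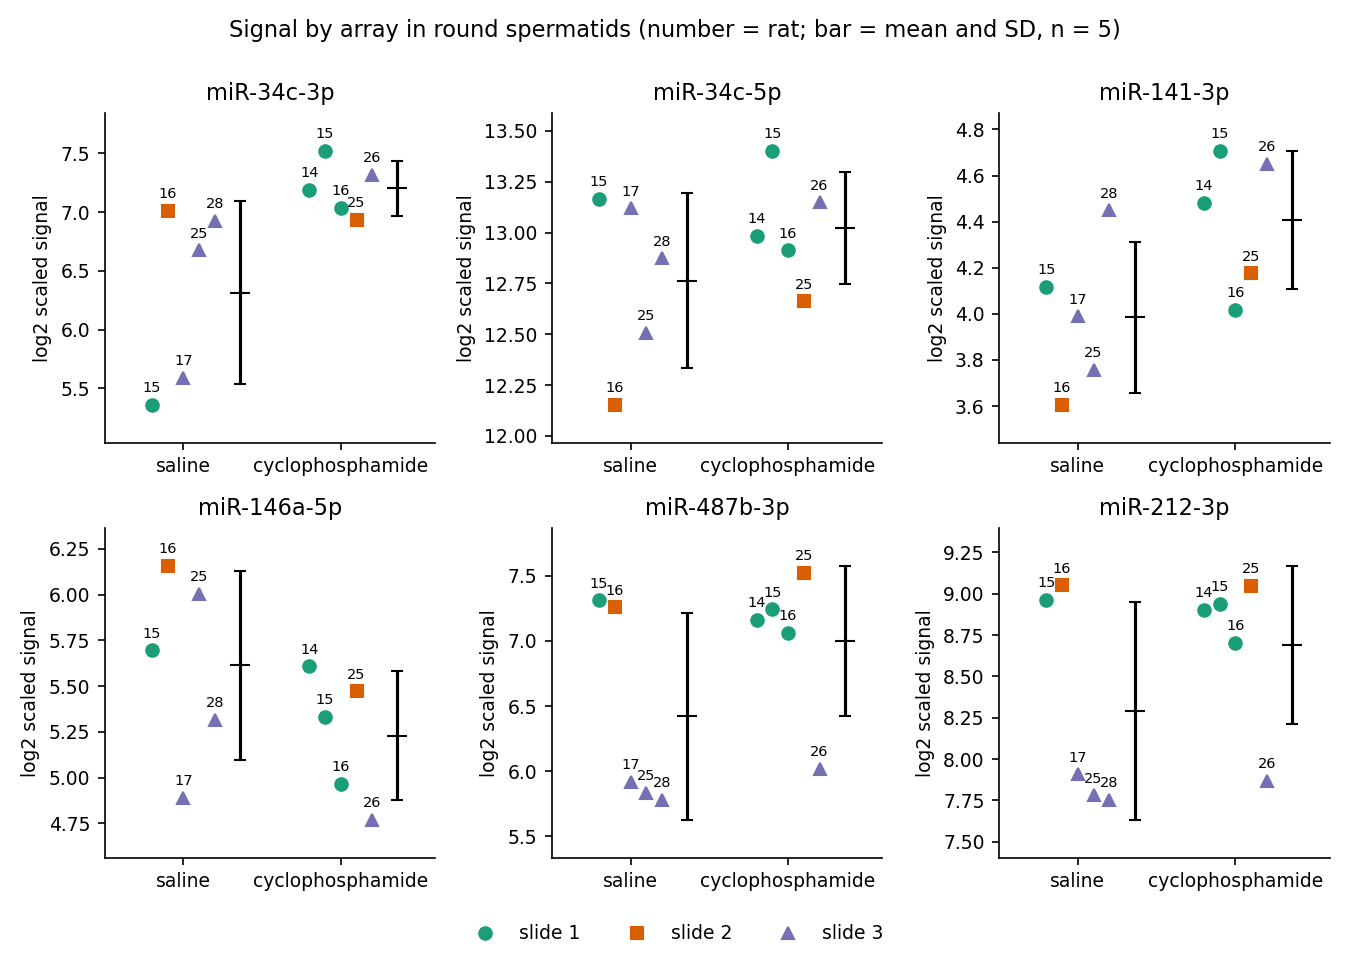
Log2 scaled signal (y axis) of 6 miRNAs on each spermatid array, by treatment (x axis), with slide as colour and shape, the rat as number, and the mean ± SD of 5 arrays as a bar. miR-34c-3p is low in saline rats 15 and 17 while miR-34c-5p is not, and miR-487b-3p and miR-212-3p are low on all 4 arrays of slide 3 in both treatments.

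Among miR-34 and miR-449 arms, 6 of 10 on the array were tested and 4 were detected on no spermatid array. None of the 6 was called, and 1 had an unadjusted p under 0.05, beside 1.09% of all tested miRNAs. All 6 differences were above 0, with a median of 0.23 against 0.04 over all tested miRNAs, but 2 of the 6 were below 0 without scaling, and 1 of 6 with array weights (median 0.02), with normexp when saline rat 25 was left out, or without slide 3. miR-34c-5p differed by 0.26 ± 0.21 (SE), miR-34b-5p by 0.23 ± 0.21 and miR-449a-5p by 0.23 ± 0.21. miR-34b-3p, which has the seed of miR-34c-3p, differed by 0.09 ± 0.13, and miR-34a-5p by 0.04 ± 0.23. By array, the median deviation of the 6 arms from their own 10-array means was 0.04, 0.44, -0.01, -0.14 and 0.32 in cyclophosphamide rats 14, 15, 16, 25 and 26. It was 0.17, -0.46, 0.22, -0.37 and 0.00 in saline rats 15, 16, 17, 25 and 28. The groups overlapped, and the low end was held by saline rats 16 and 25. The median difference was 0.23 with slide as a block too, and slides 1, 2 and 3 alone gave -0.07, 0.31 and 0.37. Quantile normalization brought it to 0.07. Leaving out single arrays moved it between 0.09 (without saline rat 16) and 0.33 (without saline rat 17).

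miR-141-3p, which with its miR-200 relatives is known for keeping cells epithelial, was the other miRNA with an unadjusted p under 0.05. It was detected on 5 cyclophosphamide arrays and 4 saline arrays. It thus passed the filter only through the treatment where it was higher, which favours a positive difference. It stood at 4.48, 4.71, 4.02, 4.18 and 4.65 after cyclophosphamide, in the order of rats above. After saline it stood at 4.12, 3.61, 3.99, 3.76 and 4.45. Saline rat 28 lay above cyclophosphamide rats 16 and 25, and saline rat 16 lay at the floor. The difference was 0.42 ± 0.19 (SE; adjusted p of 0.935 by limma), 0.47 with slide as a block, and 0.28, 0.57 and 0.59 within slides 1, 2 and 3. It depended on the processing: it was 0.14 without scaling, 0.21 with array weights, 0.83 with total gene signal, 0.11 with normexp when saline rat 25 was left out and -0.14 with normexp on all arrays. It rested on 1 of 2 probes, since the other was at the floor on all 10 arrays. The other 8 arms of the miR-200 and miR-141 family on the array were detected on no spermatid array.

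miR-146a-5p, which NF-kappa B induces and which restrains Toll-like receptor signalling, was among the lowest differences and was below 0 on every slide. Its log2 signal was 5.61, 5.33, 4.97, 5.47 and 4.77 after cyclophosphamide. It was 5.70, 6.16, 4.89, 6.00 and 5.32 after saline. The highest 3 values were saline and the lowest was cyclophosphamide rat 26, with saline rat 17 next to it. The difference was -0.38 ± 0.25 (SE), and with slide as a block -0.56 ± 0.23 with an unadjusted p of 0.0352 and an adjusted p of 0.929 by limma. Both of its probes gave a similar value, -0.38 and -0.42. Of the 6 tested arms of the NF-kappa B and stress list, 4 were above 0 and 2 below, with a median of 0.04, the median over all tested miRNAs being 0.04. With slide as a block the list had 2 above and 4 below (median -0.02), as it did without slide 3 (-0.09) and without scaling (-0.08).

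miR-150-5p, abundant in mature lymphocytes, had the lowest difference, -0.41 ± 0.22 (SE), and -0.51 with slide as a block. It was -0.85 with total gene signal and -0.0067 with normexp when saline rat 25 was left out. miR-150-5p was detected on 4 cyclophosphamide and 5 saline arrays. It thus passed the filter only through the treatment where it was higher, which favours a negative difference. After cyclophosphamide it stood at 3.76, 3.61, 4.28, 3.61 and 3.78, with rat 16 alone above the others and rats 15 and 25 at the floor. After saline it stood at 4.35, 4.46, 3.93, 4.75 and 3.61. miR-150-3p, the other arm, differed by 0.36 ± 0.31 and by -0.10 with slide as a block. The blood cell list (4 tested of 10) had 2 arms above and 2 below 0 and a median of -0.09, which was 0.09 with spike-in scaling. The summed signal of all 10 arms of the list, tested or not, ran from 231 to 295 after cyclophosphamide and from 230 to 289 after saline. An arm at the floor adds 12.2 to such a sum, here and below, so part of it is fixed on every array. The part of blood cells in the miR-150-5p value was not tested.

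miR-126a-3p, made in endothelial cells, differed by -0.33 ± 0.21 (SE) and miR-145-5p, of smooth muscle and other mesenchymal cells, by -0.29 ± 0.34. The endothelial, muscle and mesenchymal list, 10 tested of 22, had 2 members above 0 and 8 below, with a median of -0.09, which was 0.09 with spike-in scaling, 0.01 with array weights and 0.15 without slide 3. The summed signal of all 22 arms of the list, tested or not, ran from 2201 to 4075 after cyclophosphamide and from 2612 to 3889 after saline. By array its median deviation was lowest in cyclophosphamide rats 26 (-0.53) and 15 (-0.35) and highest in saline rat 25 (0.30). The miR-23, miR-24 and miR-27 clusters, also -0.09 in median over 5 tested members, were lowest in the same cyclophosphamide rats (-0.54 and -0.26) and highest in the same saline rat (0.37). Their median was 0.09 with spike-in scaling, 0.04 with array weights, 0.07 without slide 3, 0.0033 without cyclophosphamide rat 26 and 0.0029 without saline rat 25. The miR-10, miR-99, miR-100 and miR-125 group, whose miR-10 members lie in the Hox clusters, had a median of -0.10 over 9 tested arms, which was 0.07 with spike-in scaling and 0.02 with array weights, with miR-10a-5p at -0.24 ± 0.14 and miR-10b-5p at -0.24 ± 0.18, and it too was lowest in cyclophosphamide rat 26 (-0.34) and highest in saline rat 25 (0.37). The part of the marked cells in these values was not tested.

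The let-7 family, which restrains growth genes such as Ras and is widely expressed in differentiated cells, had 9 tested members of 17 arms. All 9 differences were below 0 with the percentile scaling, where they ran from -0.17 for miR-98-5p to -0.0023 for let-7a-5p, with a median of -0.10. All 9 were above 0 with spike-in scaling, as were 172 of all 184. The family median was then 0.08, below the 0.19 over all tested miRNAs. The sign also turned elsewhere: 7 of 9 were above 0 with normexp when saline rat 25 was left out, and 6 of 9 without slide 3. let-7c-5p stood at 9.24, 8.84, 9.35, 9.04 and 8.93 after cyclophosphamide and at 9.10, 9.19, 9.01, 9.55 and 9.04 after saline, so that saline rat 25 was the highest and the groups overlapped. Over the family, that rat had a median deviation of 0.36 from the 10-array means, against -0.10 to -0.02 in the other 4 saline rats and -0.24 to 0.18 after cyclophosphamide. Without saline rat 25 the family median was -0.0046. The 8 members with the seed GAGGUAG, which leaves out let-7b-3p, had a median of -0.09.

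The miR-17 to miR-92 cluster and its paralogs, which favour proliferation, had 10 tested members of 27 arms and all 10 differences above 0, with a median of 0.13 and a range from 0.06 to 0.20, but 3 of the 10 were below 0 without scaling and 2 with normexp or array weights. The median was 0.04 without scaling and 0.01 with array weights. Leaving out single arrays moved it between 0.05 (without saline rat 16) and 0.20 (without saline rat 15), and it was about 0.08 without cyclophosphamide rat 15, cyclophosphamide rat 26 or saline rat 25. miR-20a-5p stood at 8.71, 9.12, 8.80, 8.73 and 9.11 after cyclophosphamide. It stood at 9.05, 8.42, 8.87, 8.51 and 8.89 after saline. As for miR-34 and miR-449, saline rats 16 and 25 were lowest and cyclophosphamide rats 15 and 26 highest. The median was 0.11 with slide as a block and -0.13, 0.29 and 0.27 within slides 1, 2 and 3. Its largest seed group, AAAGUGC with 5 members, had a median of 0.14.

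**Figure D3:**
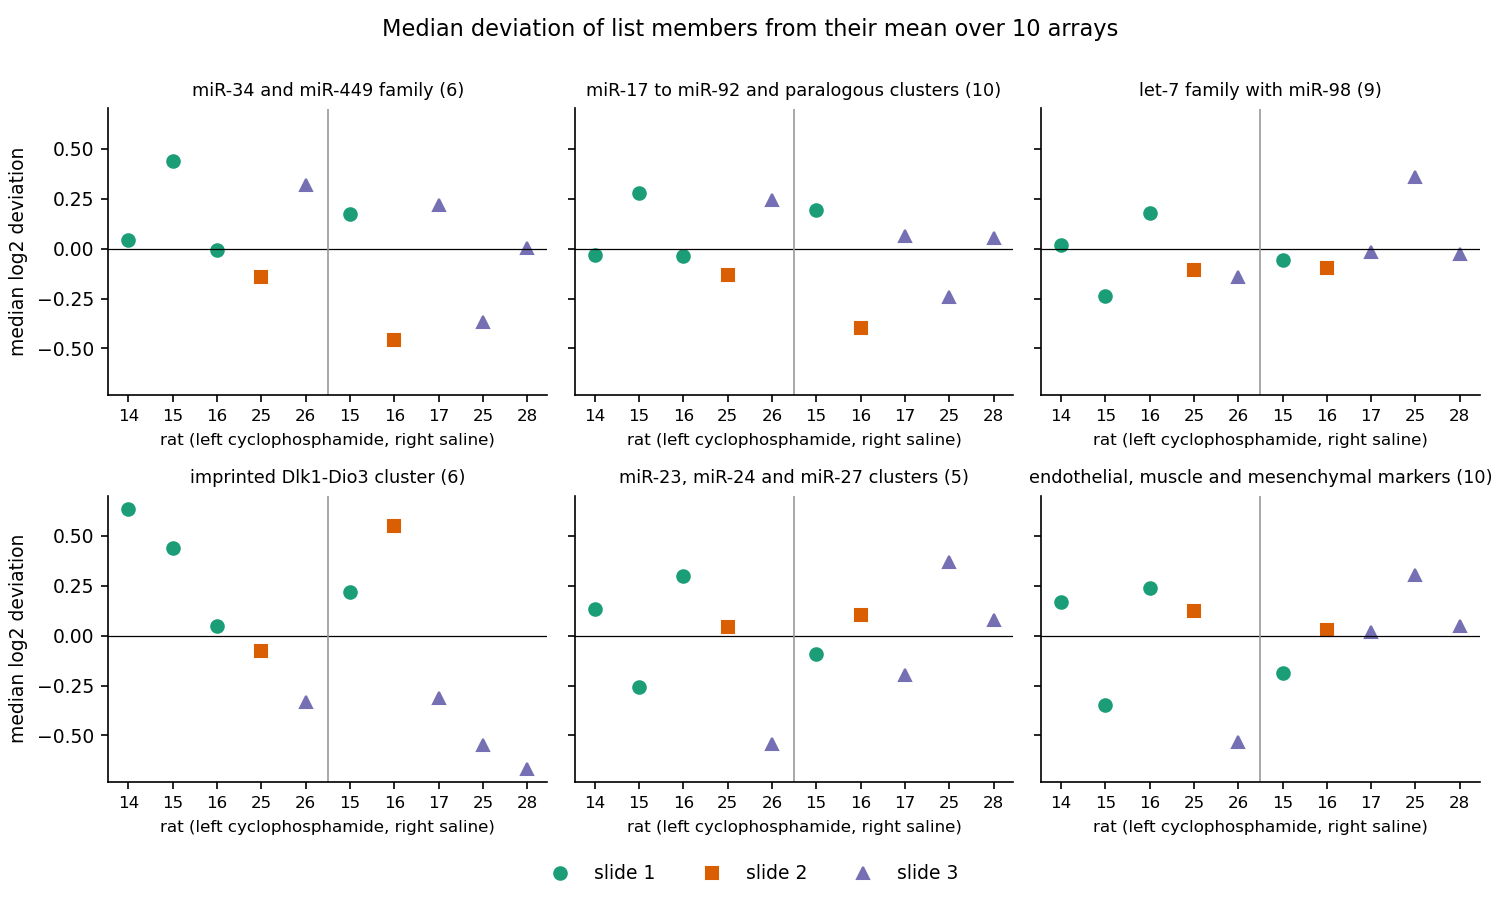
Median log2 deviation of the tested members of 6 lists from their own means over the 10 arrays (y axis) by rat (x axis, cyclophosphamide left and saline right of the grey line), with slide as colour and shape. The treatments overlap in every panel; saline rats 16 and 25 are lowest for the miR-34 and miR-449 and the miR-17 lists, and the slide 3 arrays are lowest for the Dlk1-Dio3 list.

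The X-linked miR-506 family cluster, expressed mainly in germ cells of the testis, had 19 tested members of 27 arms. Differences ran from -0.11 to 0.27 with a median of 0.04, the same as over all tested miRNAs. Of them 12 were above 0 and 7 below, against 6 and 13 without scaling or with normexp and 19 and 0 with spike-in scaling. With normexp but without saline rat 25, 13 were above 0 and 6 below. With the percentile scaling none of the 19 had an unadjusted p under 0.05. miR-741-3p, at 8.43, 8.64, 8.51, 8.46 and 8.62 after cyclophosphamide and 8.56, 8.67, 8.59, 8.43 and 8.31 after saline, differed by 0.02 ± 0.11 (SE). At the high end, miR-880-3p differed by 0.27 ± 0.19 and miR-742-3p by 0.21 ± 0.14. With slide as a block 17 of the 19 were above 0 and the median was 0.08. The 34 tested miRNAs that RefSeq places on the X chromosome had a median difference of 0.03, and the 134 on autosomes 0.04.

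The p53 and DNA damage list, 16 tested of 36 arms, had 10 members above 0 and 6 below and a median of 0.04. Of its members 2 had an unadjusted p under 0.05, miR-34c-3p and miR-141-3p, and none was called. These are the same 2 miRNAs, described above, that had such a p among all 184 tested (1.09%). The miR-29 family, regulators of DNA methyltransferases and matrix genes, had a median of 0.04 over 3 tested members, with miR-29b-3p at 0.21 ± 0.20 (SE) and miR-29c-3p at -0.07 ± 0.13. The miR-15 and miR-16 family, which holds back the cell cycle, had a median of -0.07 over 5 members, with miR-16-5p at 0.10 ± 0.15. The miR-30 family had a median of 0.02 over 8 members, the miR-7 family 0.10 over 3, the miR-148 and miR-152 family -0.02 over 2 and the other X-linked miRNAs -0.02 over 11. Of the miR-181 family, miR-181a-5p was tested, at -0.12 ± 0.16. The spermatogonial list had a median of 0.01 over 4 tested arms and the Sertoli and Leydig list 0.20 over 5, which was 0.0057 with slide as a block. Each of the list medians given here from the p53 list on turned sign under at least 1 scaling or background setting. The median over all tested miRNAs shifted too, to -0.06 without scaling, -0.13 with normexp and 0.19 with spike-in scaling. A turn of sign in a list is therefore to be read relative to it.

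**Figure D4:**
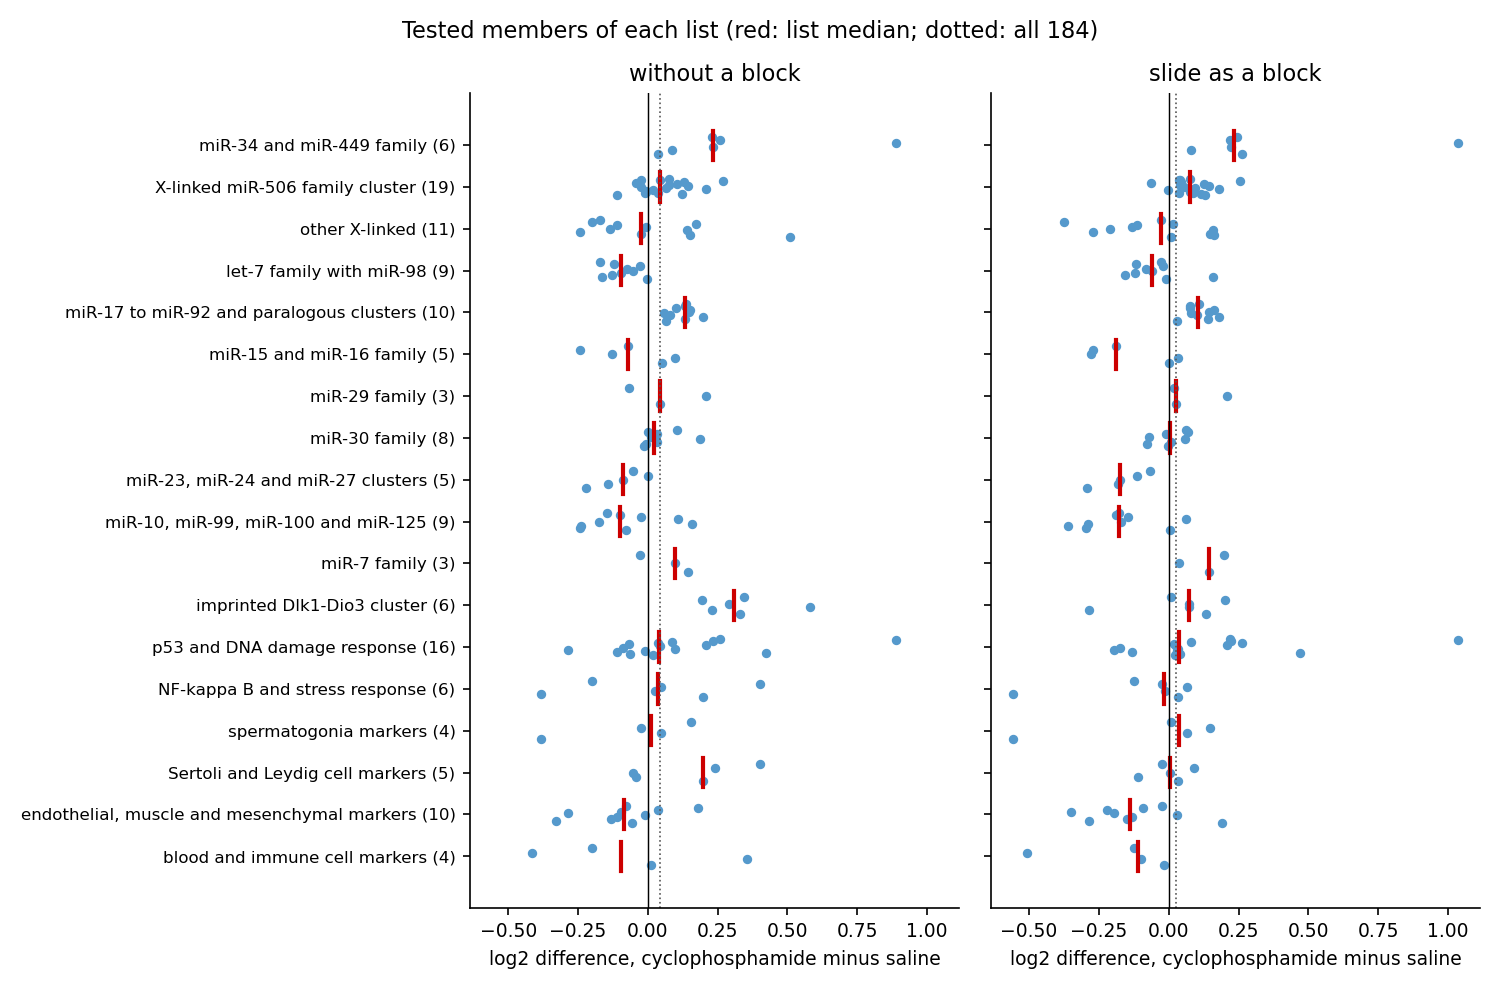
Log2 differences (x axis) of the tested members of the 18 lists with at least 3 of them (y axis, number in brackets), without a block (left) and with slide as a block (right); red bars are list medians and the dotted line is the median of all 184. The Dlk1-Dio3 median goes from 0.31 to 0.07 with the block, while that of the miR-34 and miR-449 list is 0.23 in both.

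The largest positive differences after miR-34c-3p were in miRNAs that were low on slide 3. With treatment in the model, limma called 20 of 184 miRNAs (10.9%) between slide 3 and slides 1 and 2, 17 lower (9.24%) and 3 higher (1.63%). miR-466b-5p was lower by -1.40 ± 0.18 (SE) in log2 signal, with an adjusted p of 0.000208 by limma, and miR-211-3p by -1.36 ± 0.36, miR-188-5p by -1.18 ± 0.20 and miR-212-3p by -1.13 ± 0.13. Of the 3 higher, miR-409a-3p stood at 1.07 ± 0.20, miR-2985 at 1.04 ± 0.20 and miR-702-3p at 0.92 ± 0.24. Without the array of cyclophosphamide rat 26, which left saline arrays alone on slide 3, 9 miRNAs were called, and without that of saline rat 28 there were 12. miR-487b-3p, at 7.16, 7.24, 7.06, 7.52 and 6.02 after cyclophosphamide and 7.31, 7.26, 5.92, 5.83 and 5.78 after saline, was between 5.78 and 6.02 on the 4 arrays of slide 3 and between 7.06 and 7.52 on the other 6. On slides 1 and 2 the treatments overlapped, and on slide 3 the cyclophosphamide array lay above the 3 saline arrays, by 0.18 over their mean. Its difference by treatment was 0.58 ± 0.37 without a block and 0.07 ± 0.12 with slide as a block.

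All 17 miRNAs that were lower on slide 3 had a positive difference by treatment, with a median of 0.33 and a range from 0.10 to 0.58, and with slide as a block their median was -0.02 and 8 of the 17 were above 0. Slide 3 held 3 of the 5 saline arrays but 1 cyclophosphamide array. Without a block, miRNAs chosen as low on slide 3 thus lean to a positive difference. With the block the estimates of slide and treatment stay linked, because the slides were unbalanced, so the choice bears on those values too. Without or with the block, the signs of these 17 are therefore not independent of how they were chosen. The 4 differences next in size to that of miR-34c-3p, miR-487b-3p (0.58), miR-188-5p (0.51), miR-1249 (0.48) and miR-483-5p (0.44), all belonged to these 17 and stood at 0.07, 0.0073, 0.04 and 0.0087 with slide as a block. miR-188-5p, for example, was 6.19, 5.94, 5.69, 5.43 and 4.64 after cyclophosphamide and 5.63, 5.92, 5.04, 4.43 and 4.33 after saline, lowest on slide 3 in both. miR-212-3p, which is processed from 1 transcript with miR-132, likewise went from 0.40 to -0.02 with the block. The 3 that were higher on slide 3 had differences from -0.31 to -0.03 without the block and from 0.15 to 0.37 with it. Of the 17 that were lower, 15 had a RefSeq sequence, and their median GC content was 59.1%, with miR-770-3p highest at 70.6% and miR-466b-5p lowest at 40.9%, against a median of 45.5% over the 150 with a sequence among the 164 not called. The 3 that were higher on slide 3 also lay at or above that, with a median GC content of 55% (45.5% to 60.9%).

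**Figure D5:**
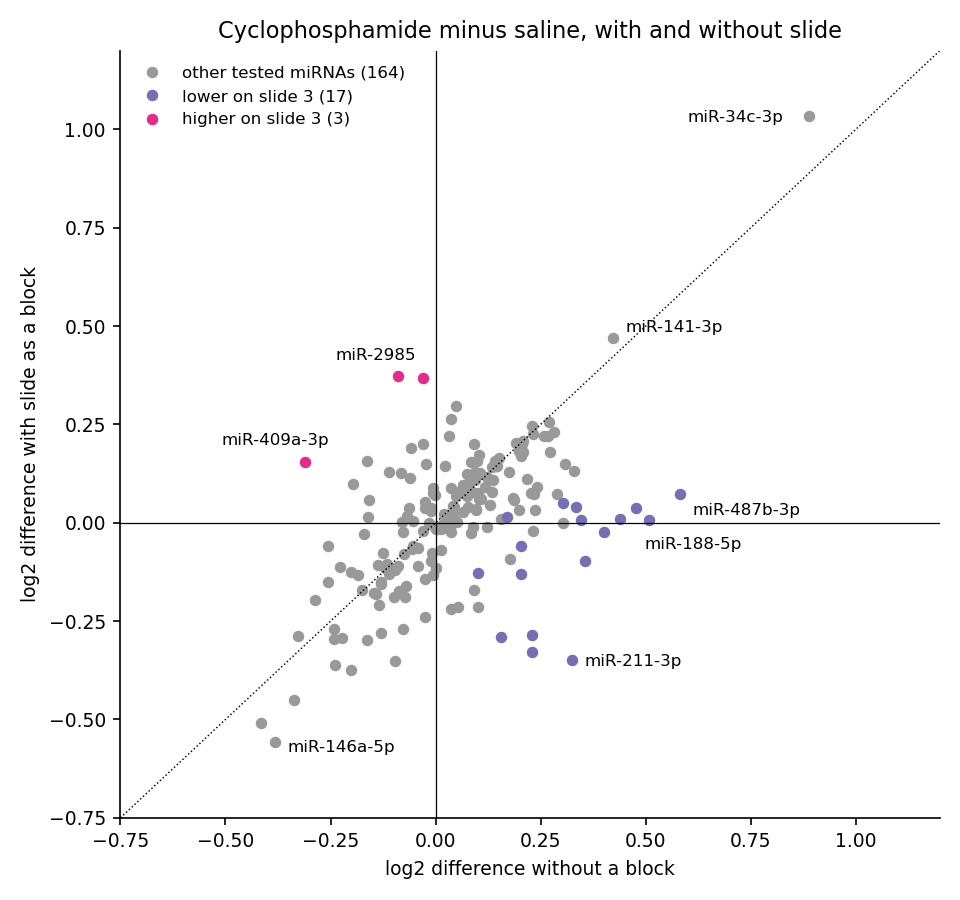
Log2 difference of each tested miRNA (cyclophosphamide minus saline) without a block (x axis) and with slide as a block (y axis), with the miRNAs called between slide 3 and slides 1 and 2 in colour and the dotted line at equality. The 17 miRNAs lower on slide 3 lie between 0.10 and 0.58 on the x axis and between -0.35 and 0.07 on the y axis.

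The imprinted Dlk1-Dio3 cluster, a large group of placental mammal miRNAs expressed from the maternal chromosome, had 6 tested members of 79 arms, and 68 were detected on no spermatid array. The 6 differences were above 0 from 0.19 to 0.58, with a median of 0.31, and 3 of the 6 were among those lower on slide 3. With normexp 4 of the 6 were below 0, but all 6 were above 0 (median 0.12) when saline rat 25 was left out. With slide as a block the median was 0.07 and 5 of 6 were above 0, and without slide 3 it was -0.0075 with 3 above and 3 below. Leaving out single arrays moved it between 0.16 (without cyclophosphamide rat 14) and 0.46 (without saline rat 16), and it was 0.20 without saline rat 28. The list, matched by name, lacks miR-409a-3p, which RefSeq places inside the span of the cluster at chr6:134579231-134579250 (GRCr8). That arm was higher on slide 3 and differed by -0.31 ± 0.33 (SE), so by position 6 of 7 tested miRNAs were above 0, with a median of 0.29 (0.07 with slide as a block). The log2 signal of miR-409a-3p was 3.87, 3.93, 3.61, 3.63 and 5.32 after cyclophosphamide and 3.61, 4.26, 4.53, 4.79 and 4.72 after saline, highest on the 4 arrays of slide 3. It was detected on 4 cyclophosphamide and 5 saline arrays, so the filter admitted it through saline, where it was higher.

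With slide as a block, limma called 0 of 184 miRNAs (0%), with 4 at an unadjusted p under 0.05 (2.17%) and a lowest adjusted p of 0.929. The sign stayed the same for 133 of the 184. The 4 with an unadjusted p under 0.05 were miR-34c-3p, miR-141-3p, miR-146a-5p and miR-1949. miR-1949 stood at 5.68, 6.31, 6.12, 5.65 and 6.22 after cyclophosphamide and at 6.67, 6.65, 6.07, 6.20 and 6.07 after saline, a difference of -0.34 ± 0.18 (SE) without and -0.45 ± 0.20 with the block. Its 2 highest values were saline rats 15 and 16, and the other 3 saline rats lay inside the cyclophosphamide range.

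Within the 3 slides, 7 miRNAs (3.8%) were above 0 on each slide and 14 (7.61%) were below 0 on each. miR-141-3p, miR-21-5p and miR-324-5p were among the 7, and miR-21-5p, a widely expressed miRNA, differed by 0.05 ± 0.10 (SE). miR-141-3p and miR-324-5p passed the filter through cyclophosphamide alone, each detected on 5 cyclophosphamide and 4 saline arrays. miR-146a-5p, miR-150-5p, miR-10a-5p, miR-10b-5p, miR-126a-3p and miR-223-3p were among the 14. Of these, miR-150-5p passed the filter through saline alone, detected on 4 cyclophosphamide and 5 saline arrays. The same holds for miR-327, another of the 14. Without a block 4 of the 14 were above 0, among them miR-211-3p at 0.33. miR-223-3p, a miRNA of granulocytes and monocytes, differed by -0.20 ± 0.14. The remaining miRNAs among the 15 smallest p-values were miR-3573-3p (0.27 ± 0.14 SE), miR-134-5p (0.33 ± 0.17), miR-375-3p (0.27 ± 0.16), known from islets and neuroendocrine cells, miR-3582 (0.23 ± 0.14), miR-551b-5p (0.30 ± 0.20), miR-466b-2-3p (-0.26 ± 0.15) and miR-365-3p (-0.26 ± 0.16). With slide as a block, miR-551b-5p stood at 0.05 and miR-365-3p at -0.06.

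The difference of the drug effect between round spermatids and pachytene spermatocytes was tested over all 20 arrays, of which 2 of the 5 pachytene cyclophosphamide arrays carry the same rat number, 16. Limma called 0 of 184 miRNAs (0%), with 0 at an unadjusted p under 0.05 and a lowest adjusted p of 0.994, and with slide as a block 0 were called and 2 had an unadjusted p under 0.05, miR-146a-5p at -0.59 ± 0.23 (SE) and miR-141-3p at 0.50 ± 0.21. Without a block, leaving out either of the pachytene cyclophosphamide arrays numbered 16 gave 0 calls and 0 at an unadjusted p under 0.05. The median of the miR-34 and miR-449 arms was 0.00057 in pachytene spermatocytes, and the median over its arms of the difference between the cell types was 0.24. For miR-141-3p, the drug difference was -0.03 in pachytene spermatocytes, and the difference between the cell types was 0.46 ± 0.25 (SE). These values do not show that the treatment response differed, or that it was alike, in the pair of cell types.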

How the data were processed

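Total RNA (100 ng, Cy3) was hybridised to 1-colour Agilent rat miRNA arrays, per the labels' protocols. The deposited intensity values are processed signals that Agilent Feature Extraction 11.5.1.1 had background-corrected, per the file headers. The signal of 1 array was stored to 3 significant digits. The authors' deposited log2 value table, whose scale and centring are not given in the sources used here, served as an alternative for 43 matched miRNAs (median r 0.912 with the scanner values, column medians -0.12 to 0.40).

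Control and outlier spots were left out, and each array was divided by its 75th percentile over the 2176 spots well above background on all 20 arrays. Signals were then floored at 12.2 (3.61 in log2) and the brightest probe stood for each miRNA. Treatment was tested with limma 3.58.1 in R 4.3.3 (lmFit, eBayes, Benjamini-Hochberg) on the miRNAs that Feature Extraction detected on every array of either treatment, with slide as a block as a second fit, after a test on simulated data. Tests across arrays were exact permutation tests (scipy 1.17.1). Within slides, lone arrays were assumed to vary like the rest. Each spermatid array of a treatment names a different rat, so replicates are taken as separate animals. Over both cell types the arrays were treated as independent, although rat numbers recur between cell types and, within pachytene cyclophosphamide arrays, number 16 recurs. The number of arrays limits the precision. The normexp alternative used the median spot signal.

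The members and lists were chosen with earlier results of these data known. The named miRNAs are the 15 with the smallest p, the 10 with the smallest p under the slide block, the 5 largest and 5 lowest differences, any whose treatments did not overlap, the 3 brightest tested members of each list, and any detected on all 5 arrays of one treatment and at most 2 of the other. Any other miRNA named was chosen after its values were seen. Alternatives covered scaling, background, floor, filter, probe summary, weights, blocks and arrays left out. Coordinates of the array design were not used.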

Additional observations from a re-analysis of the deposited data

Results flagged for a closer look

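Of 146 groups of 5 arrays examined, 9 held a value far from the other 4, its gap being more than 0.71 of the range, which chance gives in about 5% of groups. On the log2 scale, cyclophosphamide rat 26 held 5 of them. It was low for miR-125b-5p at 8.85 (others 9.23 to 9.34), for miR-152-3p at 4.00 (4.80 to 5.12) and for miR-199a-3p at 5.27 (6.48 to 6.86). It was high for miR-2985 at 5.92 (4.21 to 4.67) and for miR-409a-3p at 5.32 (3.61 to 3.93), and it was the only cyclophosphamide array on slide 3. Cyclophosphamide rat 16 was high for miR-150-5p at 4.28 (3.61 to 3.78). Saline rat 16 was low for miR-21-5p at 9.01 (9.17 to 9.23) and high for miR-494-3p, of the Dlk1-Dio3 cluster, at 11.08 (the lowest of the others 9.59). Saline rat 25 was low for miR-7a-2-3p at 3.78 (4.34 to 4.49).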

How the results depend on the processing

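Limma called 0 miRNAs for treatment in each of the 34 alternatives, with 0 (normexp) to 18 (array weights) at an unadjusted p under 0.05 and a lowest adjusted p of 0.306, within slide 1. Without single arrays 0 were called and 1 to 9 had an unadjusted p under 0.05, 9 without saline rat 16. The replicate block on the rat number shared by 3 rats of each treatment called 0, with 6 at an unadjusted p under 0.05. Deviations of same-numbered rats correlated at 0.604 for number 15, whose arrays share slide 1. They correlated at -0.02 for number 16 and 0.353 for number 25, whose arrays lie on different slides. The numbers were not taken as pairs, since a shared number does not mark the same animal. The difference in drug effect between cell types gave 0 limma calls in every alternative run, with 0 to 4 at an unadjusted p under 0.05. Between slide 3 and slides 1 and 2, 20 miRNAs were called, against 5 of 43 in the authors' deposited table, 6 of 677 with no filter, 1 with normexp, 2 with no scaling and 11 with total gene signal, and 9 (without cyclophosphamide rat 26) to 20 without single arrays, 12 without saline rat 28. The cause was not tested. The difference of -3 detected miRNAs per array ran from -10.6 to 5.35 without single arrays and was positive without cyclophosphamide rat 14 (5.15) or saline rat 25 (5.35). Of 3075 comparisons of single miRNAs and list medians, 2896 moved by less than 1 SD between rats, 179 by more, and 0 passed the threshold. Normexp is doubtful on the array of saline rat 25, where its fitted background mean was -239 against -0.18 to 5.69 on the other spermatid arrays. It is doubtful too on the pachytene array of cyclophosphamide rat 7 (-358), which enters the normexp alternative for the difference between cell types. Normexp without saline rat 25, no scaling with the slide block, limma-trend and the Dlk1-Dio3 span by coordinates were chosen after seeing the data.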
